A study of Mus musculus with 5 samples.

Results

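The adult globin genes Hba-a1, Hba-a2, Hbb-bs and Hbb-bt and the red cell heme enzyme gene Alas2 are described here in RNA from CD11b-positive brain cells of mice 7 months old. They are 5 of the 56748 genes in the count table, found by symbol. They were selected on the counts themselves, because erythroid RNA was higher in each library with the Cd5l transgene, so their levels and fold changes between the genotypes are a description and no test is given for them. The libraries came from 2 mice of the 5xFAD line (replicates 1 and 3), a transgenic model that develops amyloid plaques, and from 3 mice 5xFAD/Cd5l tg/wt (replicates 1, 2 and 3). The latter carried, besides the 5xFAD transgenes, mouse Cd5l driven by the human PDGF-B promoter, and are called Cd5l-transgenic below. All mice thus had the 5xFAD background, and the cerebellum had been removed. The labels name both brain tissue and CD11b-positive cells. Wild-type mice were not analysed here.

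Haemoglobin is a tetramer of a pair of alpha and a pair of beta globin chains, each holding a heme group, and carries oxygen in red cells. Hba-a1 and Hba-a2 encode the adult alpha chain from neighbouring, nearly identical genes. Hbb-bs and Hbb-bt are the adult beta chain genes of mouse strains with the single haplotype, such as C57BL/6. Alas2 encodes the first, rate-setting enzyme of heme synthesis in red cell precursors, while other cells use Alas1. Mature mammalian red cells have no nucleus, and reticulocytes, the youngest red cells in blood, still hold globin messenger RNA. Red cells do not carry CD11b, the integrin by which the cells here were labelled. Globin RNA has also been described at low levels in cells outside the blood, such as neurons and arterial endothelium.

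The genes lie in 3 clusters on different chromosomes. In the coordinates of the count table (GRCm39), Hba-a1 (ENSMUSG00000069919) lies on chromosome 11 from 32233511 to 32234465 on the plus strand and Hba-a2 (ENSMUSG00000069917) from 32246489 to 32247298 on the same strand. Hbb-bs (ENSMUSG00000052305) lies on chromosome 7 from 103475741 to 103477303 and Hbb-bt (ENSMUSG00000073940) from 103461731 to 103463203, both on the minus strand. Alas2 (ENSMUSG00000025270) lies on chromosome X from 149330371 to 149353634 on the plus strand.

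The stretches directly upstream of the start sites are shown because the members moved together although they lie on different chromosomes, and because the alpha copies cannot be told apart over most of their length. Each line gives the 150 bases before the RefSeq start site, 5′ to 3′ on the gene's own strand, from RefSeq in GRCm38.p6, which is not the build of the count table. All 5 members had an entry. Capitals mark the letters CACCC, the core bound by the red cell factor KLF1, AGATAA, a form of the motif of GATA factors, CCAAT and TATAA, each searched on both strands; none of these 4 strings holds another.
Hba-a1, chr11:32283522-32283671, plus strand: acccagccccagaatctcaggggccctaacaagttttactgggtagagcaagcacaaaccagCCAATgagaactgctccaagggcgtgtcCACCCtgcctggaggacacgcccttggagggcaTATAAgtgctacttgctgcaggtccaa
Hbb-bs, chr7:103827929-103828078, minus strand: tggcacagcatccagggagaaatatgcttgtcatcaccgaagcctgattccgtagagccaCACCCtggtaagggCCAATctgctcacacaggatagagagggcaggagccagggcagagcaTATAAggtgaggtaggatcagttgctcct
Hbb-bt, chr7:103813924-103814073, minus strand: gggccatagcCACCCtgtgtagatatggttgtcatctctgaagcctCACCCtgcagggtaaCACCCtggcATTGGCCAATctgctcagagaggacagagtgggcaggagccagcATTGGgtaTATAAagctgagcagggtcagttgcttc
Alas2, chrX:150547267-150547416, plus strand: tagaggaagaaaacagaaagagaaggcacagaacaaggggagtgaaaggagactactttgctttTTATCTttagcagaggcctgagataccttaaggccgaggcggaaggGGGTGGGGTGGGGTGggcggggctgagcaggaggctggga

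CACCC was present in the 250 bases upstream of all 5 genes, and 52.0% of 32851 RefSeq upstream stretches of the same length held it. CCAAT, found in 33.9% of all stretches, stood upstream of the 4 globin genes and not in the stretch of Alas2. TATAA, found in 22.8%, began 27 to 30 bases before the start of the globin genes and 207 bases before that of Alas2. AGATAA, found in 9.99% of all stretches, was present upstream of Hbb-bs (210 bases before the start) and of Alas2 (86 bases before the start, on the opposite strand). A match of letters is a description and does not show a bound site.

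The copies of each chain share much of their RNA sequence. Upstream, Hba-a1 and Hba-a2 shared an unbroken run of 247 of 250 bases, whereas the longest run shared by Hbb-bs and Hbb-bt was 14 bases. In the transcripts of GENCODE M21 (GRCm38), 67.5% of the 50-base strings of Hba-a1 also occurred in Hba-a2, and 86.9% of those of Hba-a2 occurred in Hba-a1. The longest identical run was 415 bases. Hbb-bt held 65.8% of the 50-base strings of Hbb-bs, and Hbb-bs held 58.3% of those of Hbb-bt, with a longest run of 430 bases. The sources used here do not say how reads that fit both copies were counted, so the split within each pair is uncertain, while the sum of each pair is not affected by a choice between the copies. If such reads were left out, the sums would be too low, and not equally for alpha and beta. The alpha share and the order per length below carry this limit.

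The libraries held 30798377 to 34794617 counts, so that 1 count was worth 0.0282 to 0.0339 CPM, the depth-scaled unit used below (with TMM factors). Cd5l had 45 and 9 counts in the 5xFAD libraries and 6438 to 10680 in the Cd5l-transgenic ones, as labelled. Microglial identity genes, 10 of 10 measured, summed to 24360 and 25850 CPM in 5xFAD and 24600 to 26560 CPM in the transgenic libraries, and Itgam, which encodes CD11b, stood between 305.5 and 363.4 CPM. Xist stood between 894.4 and 1338 CPM, and the Y-linked genes Ddx3y, Uty, Kdm5d and Eif2s3y had 0 counts in all 5 libraries. The sex of the mice therefore did not differ by these genes. Over all 17724 genes tested, the edgeR quasi-likelihood test called 0% higher and 0% lower in the transgenic libraries at an adjusted p under 0.05, with 202 genes (1.14%) higher and 265 (1.5%) lower at an unadjusted p under 0.05. DESeq2 called 12 higher (0.0807% of the genes with an adjusted p) and 3 lower (0.0202%). The former included Hba-a1 and none of the other members, and Alas2 had no adjusted p. As Hba-a1 was chosen on this contrast, its call is no test of it. The smallest adjusted p of edgeR was 0.448, so that test did not call Cd5l itself, which DESeq2 called (adjusted p 6.3e-19). Where edgeR called 0 genes of a list below, a difference is therefore not excluded.

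All globin RNA together was a minor part of the libraries. The 4 genes summed to 68 and 47 counts in 5xFAD replicates 1 and 3, and to 221, 627 and 268 counts in Cd5l-transgenic replicates 1, 2 and 3. In scaled values these were 2.30 and 1.33 CPM against 7.14, 19.7 and 8.11 CPM. Every transgenic library thus lay above both 5xFAD libraries, and replicate 2 stood apart from the other transgenic ones, 2.75 times above the lowest. Their mean was 1.82 ± 0.692 CPM (SD, n = 2) without and 11.6 ± 6.97 CPM (SD, n = 3) with the Cd5l transgene, 6.41 times as much, or 2.68 on the log2 scale. Without Cd5l-transgenic replicate 2 the log2 ratio was 2.08, and without that library and 5xFAD replicate 3 together it was 1.74. In bulk RNA, fewer cells of a type and less RNA per cell cannot be told apart.

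For each of the 5 members the lowest transgenic library lay above the highest 5xFAD one, as the choice of the members required. The share of all tested genes with that pattern was 7.2%, and 8.69% had the opposite one; nothing is read from the members' count. Hba-a2, Hbb-bt and Alas2 had at least 10 counts in transgenic libraries only, so that they passed the filter on low counts through that group alone.

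Of the alpha globin genes, Hba-a1 held most counts. Hba-a1 had 16 and 16 counts in the 5xFAD libraries, and 116, 303 and 92 counts in Cd5l-transgenic replicates 1, 2 and 3. In CPM these were 0.542 and 0.452 against 3.75, 9.50 and 2.78. The 5xFAD libraries were nearly equal, and the lowest transgenic library lay 5.13-fold above the higher of them. Its mean was 0.497 ± 0.0641 CPM (SD, n = 2) without and 5.35 ± 3.63 CPM (SD, n = 3) with the Cd5l transgene, and the fitted log2 difference was 3.43 (standard error, SE, 0.84). Without Cd5l-transgenic replicate 2 it was 2.73, and without that library and 5xFAD replicate 3 together 2.59.

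Hba-a2, the second alpha copy, had 2 and 3 counts in 5xFAD and 15, 30 and 18 counts in the transgenic libraries. Both 5xFAD values were at or under the limit of 3 counts, and the groups did not overlap. Pooled over the libraries the transgenic level was 8.54 times the 5xFAD one, with an exact 95% interval of 3.47 to 27.2 that covers counting error only. Such pooled intervals, here and below, leave out the spread between mice. As the members were chosen for this difference, the intervals are no test of the genotypes. For Hba-a1 the pooled ratio was 10.8 (7.57 to 16.0). With both copies summed to 1 row, the log2 fold change of alpha globin was 3.39 (SE 0.78).

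Hbb-bs, the more abundant beta copy, showed the smallest relative gap of the globins. Its counts were 48 and 25 in 5xFAD replicates 1 and 3, and 78, 230 and 136 in Cd5l-transgenic replicates 1, 2 and 3. These corresponded to 1.63 and 0.705 CPM against 2.52, 7.21 and 4.12 CPM. Here the 5xFAD libraries themselves differed 2.31-fold, and the lowest transgenic library lay 1.55-fold above the higher 5xFAD one. The log2 fold change was 2.03 (SE 0.62). It was 1.5 without 5xFAD replicate 3, 2.71 without 5xFAD replicate 1, and 1.04 without 5xFAD replicate 3 and Cd5l-transgenic replicate 2 together.

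Hbb-bt, the other beta copy, had 2 and 3 counts in 5xFAD and 12, 64 and 22 counts in the transgenic libraries. It varied most among the transgenic mice, 5.17-fold from the lowest to the highest, where Hba-a2 varied 1.94-fold. The pooled ratio was 13.3, with an exact 95% interval of 5.50 to 41.8. The fitted log2 difference of Hbb-bt was 3.67 (SE 1.15), and 2.74 without Cd5l-transgenic replicate 2. With both beta copies summed to 1 row the log2 fold change was 2.22 (SE 0.66), as most beta counts were those of Hbb-bs.

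Alas2 had 3 and 5 counts in 5xFAD and 8, 35 and 14 counts in Cd5l-transgenic replicates 1, 2 and 3. In CPM it stood at 0.102 and 0.141 against 0.259, 1.10 and 0.424. As for the summed globins, replicate 2 was the highest, replicate 3 next and replicate 1 the lowest of the transgenic libraries. Mean Alas2 was 0.121 ± 0.0279 CPM (SD, n = 2) without and 0.593 ± 0.445 CPM (SD, n = 3) with the Cd5l transgene. The pooled ratio of Alas2 was 4.83 (exact 95% interval 2.29 to 11.7), and the log2 ratio of its means was 2.29, or 1.5 without Cd5l-transgenic replicate 2.

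**Figure D1:**
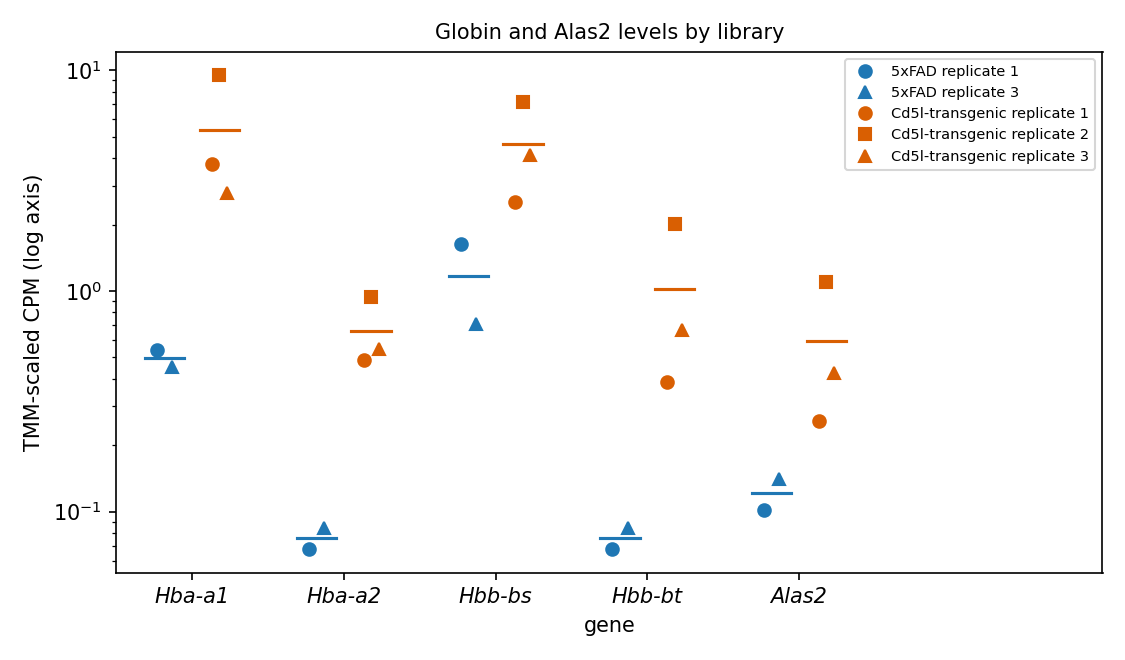
TMM-scaled CPM (log axis) of the 5 members in each library, with 5xFAD in blue, Cd5l-transgenic in orange, a marker shape for each replicate number and a line at each group mean. For Hba-a1 the transgenic libraries stood between 2.78 and 9.50 CPM and the 5xFAD libraries at 0.452 and 0.542 CPM; Cd5l-transgenic replicate 2 was the highest library for all 5 genes.

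Per length of gene, the order of the members differed between libraries. Hbb-bs led in both 5xFAD libraries, at 2.12 and 0.918 CPM per kb, with Hba-a1 next at 0.668 and 0.556 CPM per kb. Hba-a1 led in Cd5l-transgenic replicates 1 and 2, at 4.62 and 11.7 CPM per kb against 3.28 and 9.39 CPM per kb for Hbb-bs. In replicate 3 Hbb-bs led again, at 5.36 against 3.43 CPM per kb. Means over the transgenic libraries were 6.58 CPM per kb for Hba-a1 and 6.01 CPM per kb for Hbb-bs, a difference far within the spread between mice. Alas2 was the lowest member in all 5 libraries, at 0.0423 to 0.457 CPM per kb.

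The make-up of the globin RNA was then compared within libraries, a measure that does not depend on how much of it a library held. Alpha counts made up 26.5% (18 of 68, exact Clopper-Pearson 95% interval 16.5% to 38.6%) of globin counts in 5xFAD replicate 1 and 40.4% (19 of 47, 26.4% to 55.7%) in 5xFAD replicate 3. In the transgenic libraries they made up 59.3% (131 of 221, 52.5% to 65.8%), 53.1% (333 of 627, 49.1% to 57.1%) and 41.0% (110 of 268, 35.1% to 47.2%) for replicates 1, 2 and 3. The intervals of transgenic replicates 1 and 3 did not overlap, so the alpha share differed between mice of the same genotype by more than counting error. The value of transgenic replicate 3 lay next to that of 5xFAD replicate 3, and their intervals overlapped. Intervals here and below treat counts as independent and cover counting error only.

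The second copy of each chain was the minor one throughout. Hba-a2 held 11.1% and 15.8% of alpha counts in 5xFAD, where 18 and 19 counts give wide intervals (1.38% to 34.7% and 3.38% to 39.6%), and 9.01% to 16.4% in the transgenic libraries. All 5 intervals overlapped. Hbb-bt held 4% (0.488% to 13.7%) and 10.7% (2.27% to 28.2%) of beta counts in 5xFAD, and 13.3%, 21.8% and 13.9% in Cd5l-transgenic replicates 1, 2 and 3. The interval of replicate 2 (17.2% to 26.9%) lay above that of 5xFAD replicate 1 and overlapped the other 3. Alas2 gave 44.1 and 106 counts per 1000 globin counts in 5xFAD and 36.2, 55.8 and 52.2 in the transgenic libraries. The groups overlapped in this ratio, and so did the intervals of all 5 libraries for the share of Alas2 among globin and Alas2 counts (4.23% and 9.62% in 5xFAD, 3.49% to 5.29% with the transgene). The mean log2 ratio of Alas2 to globin counts differed by -0.54 between the genotypes, by -1.17 without 5xFAD replicate 1 and by 0.099 without 5xFAD replicate 3, so that its direction rested on 1 library.

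**Figure D2:**
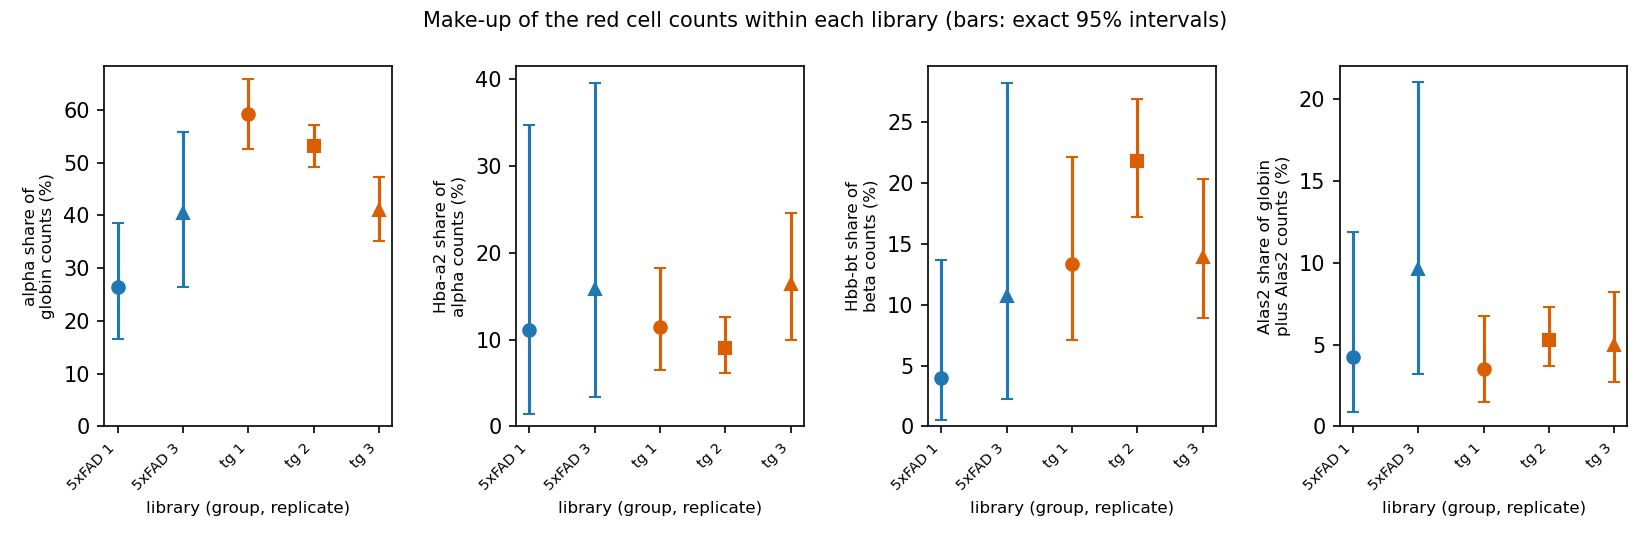
Share, in percent, of alpha in globin counts, of Hba-a2 in alpha counts, of Hbb-bt in beta counts and of Alas2 in globin plus Alas2 counts in each library (tg, Cd5l-transgenic), with exact 95% intervals. The alpha share ran from 26.5% in 5xFAD replicate 1 to 59.3% in Cd5l-transgenic replicate 1, while the Alas2 share had overlapping intervals in all 5 libraries.

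Across the 5 libraries the members followed a similar profile. Likeness was measured as the root mean square difference from the summed globins in centred log2 CPM, where 0 is an identical profile and the median of all tested genes was 1.39. The globin genes, which are themselves parts of the sum, had values from 0.373 to 0.390, and Alas2, which is not, had 0.579. Among all 17724 tested genes the globins ranked 3 to 6 and Alas2 12. Other genes, outside the limits on level and symbol used below, thus lay closer to the sum than any globin or than Alas2. Hba-a2 and Alas2 themselves averaged under 1 CPM in both genotypes. All members were chosen for being higher with the transgene, which by itself brings their profiles close, so these values are a description. Among other genes averaging 1 CPM or more that have an established symbol, those most like the summed globins over these 5 libraries were Rhobtb3 (0.590), Fmo2 (0.617), Gpr20 (0.649), Snap25 (0.656) and Cyp26b1 (0.666), followed by Rph3a, Insc, Nrsn1, Rundc3a and Cdc42ep2 (0.674 to 0.685). Snap25 and Rph3a encode proteins of synaptic vesicle release, Cyp26b1 degrades retinoic acid, and Fmo2 is a flavin-containing monooxygenase. Fmo2 stood at 4.61 and 3.10 CPM in the 5xFAD libraries against 7.98, 20.5 and 5.81 CPM in the Cd5l-transgenic ones. All 10 had their highest value in Cd5l-transgenic replicate 2, as did 21.2% of all tested genes. They were picked for likeness to the globins, whose highest library this was, so the shared peak was largely set by the choice.

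**Figure D3:**
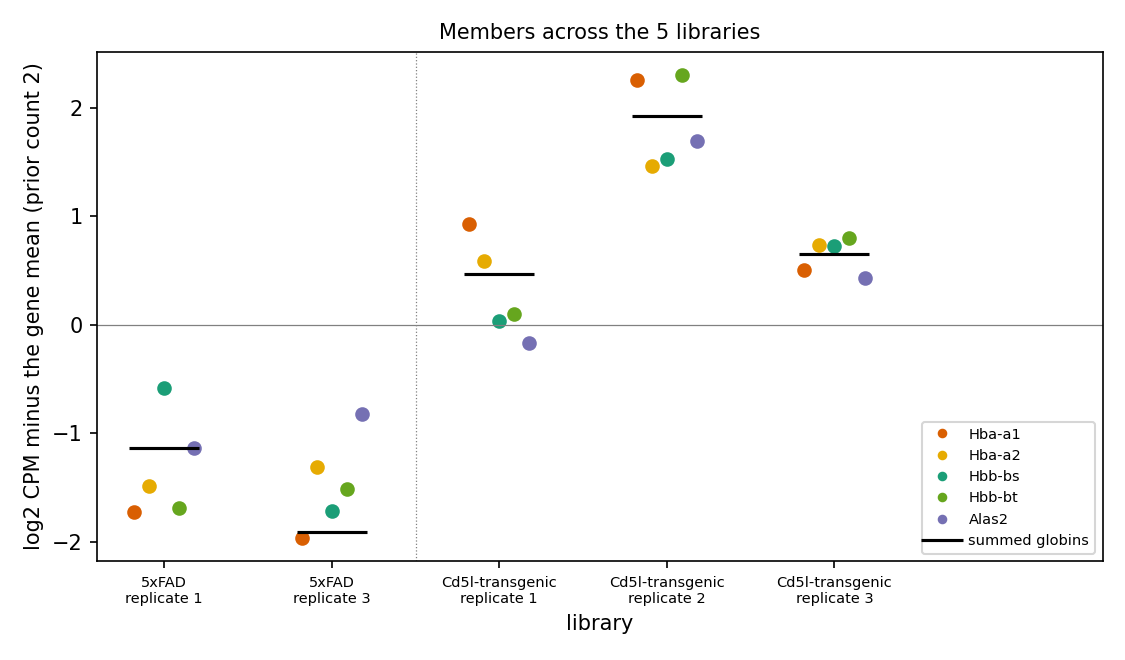
Log2 CPM (prior count 2) minus the gene's mean over the 5 libraries for each member (dots) and for the summed globins (bars). All members lay below 0 in both 5xFAD libraries and highest in Cd5l-transgenic replicate 2, from 1.46 for Hba-a2 to 2.30 for Hbb-bt; in replicate 1 Hba-a1 stood at 0.93 and Alas2 at -0.17.

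Other genes of red cells were read beside the members. Over all libraries their lists summed to 131.7 to 158.5 CPM for membrane genes and 1398 to 1619 CPM for enzymes and maturation genes. Factors and receptors summed to 536 to 593.6 CPM, where the globins summed to 1.33 to 19.7 CPM. A red cell part of the size of the globins could be hidden in such levels. Flat medians therefore do not show that red cell RNA of these genes was unchanged. In the list of 20 membrane and cytoskeleton genes, 12 passed the filter, 6 of them above 0, with a median log2 fold change of -0.038 against -0.027 over all genes tested, and 0 passed the edgeR test in either direction, at adjusted or unadjusted p under 0.05. Those with the smallest unadjusted p were Xk, a membrane transport protein (0.39, SE 0.19), the water channel Aqp1 (-1.59, SE 0.82), Gypc, glycophorin C (0.59, SE 0.37), and Sptb, beta spectrin (-0.77, SE 0.49). Aqp1, which the choroid plexus also expresses, had its highest value, 18.4 CPM, in 5xFAD replicate 3, the library with the most choroid plexus RNA. Sptb was also highest there, at 5.11 CPM, against 1.63 CPM in 5xFAD replicate 1 and 1.94 to 2.16 CPM in the transgenic libraries. Rhag, the Rh-associated glycoprotein, had 0 counts in all libraries, and Epb42, protein 4.2 of the red cell membrane, had at most 1. Slc4a1, the band 3 anion exchanger, was named after its values were seen: it had 1 and 1 counts in 5xFAD and 2, 18 and 9 in Cd5l-transgenic replicates 1, 2 and 3. Its groups did not overlap, and its pooled ratio was 9.82 with an exact 95% interval of 2.48 to 85.0.

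Of the list of red cell enzymes and maturation genes, 21 were in the table and 17 passed the filter, 9 of them above 0, with a median of 0.041. The edgeR test called 0 at adjusted p under 0.05 and 1 at an unadjusted p under 0.05. Ube2l6, a conjugating enzyme for the ubiquitin-like ISG15, stood at 0.27 (SE 0.12), Pklr, the pyruvate kinase of red cells and liver, at -1.69 (SE 0.94), and Isg20 at 0.37 (SE 0.25). The value of Pklr rested on 5xFAD replicate 3, at 1.27 CPM. It had 0.136 CPM in 5xFAD replicate 1 and 0.125 to 0.363 CPM in the transgenic libraries. Trim58 and Hemgn, both expressed in late red cell precursors, had 0 counts in all 5 libraries.

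Of 12 erythroid transcription factors and receptors, 9 passed the filter, 4 of them above 0, with a median of -0.021 and 0 called at adjusted or unadjusted p under 0.05. Tfrc, the transferrin receptor that brings iron into many cell types, stood at 32.7 and 33.1 CPM in the 5xFAD libraries against 38.9, 61.9 and 41.8 CPM in the Cd5l-transgenic ones (log2 difference 0.53, SE 0.22), without overlap. Nfe2, a factor of red cell precursors and megakaryocytes, had a log2 fold change of 0.71 (SE 0.45), Epor, the erythropoietin receptor, 0.41 (SE 0.39), and Lmo2 -0.12 (SE 0.10). The factors that define red cell precursors were near the limit of detection in both genotypes: Klf1 had 4 and 3 counts in 5xFAD and 3 to 5 with the transgene, Gata1 at most 2 and Gfi1b at most 1.

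The other genes of heme synthesis showed no shift like that of Alas2. All 12 passed the filter, 7 lay above 0, the median was 0.012, and 0 were called at adjusted or unadjusted p under 0.05. Alas1, the enzyme of other cells for the step that Alas2 catalyses, stood at 93.7 and 85.3 CPM in the 5xFAD libraries against 92.5, 93.4 and 87.4 CPM in the Cd5l-transgenic ones. The summed level was nearly the same in both genotypes: the 12 genes added up to 520.5 and 539.2 CPM in the 5xFAD libraries against 520.7 to 538.7 CPM in the Cd5l-transgenic ones. Cpox (0.16, SE 0.12), Ppox (-0.10, SE 0.09) and Fech, which inserts the iron (-0.08, SE 0.07), had the smallest unadjusted p of the list.

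Genes that take up and break down haemoglobin and heme are expressed by macrophages and microglia. Of 13 such genes 8 lay above 0, with a median of 0.041, and the edgeR test called 0 at adjusted p under 0.05 and 1 lower at an unadjusted p under 0.05. That gene was Hmox1, heme oxygenase, at 82.9 and 74.6 CPM in the 5xFAD libraries against 69.7, 61.7 and 70.0 CPM in the Cd5l-transgenic ones (log2 difference -0.23, SE 0.09). Flvcr1, the heme exporter, stood at -0.24 (SE 0.11), also without overlap, Slc48a1, a heme transporter of lysosomes, at 0.42 (SE 0.29), and the ferritin light chain Ftl1 at -0.18 (SE 0.16). Cd163, the receptor for haemoglobin bound to haptoglobin, had a log2 fold change of 0.22 (SE 0.28).

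**Figure D4:**
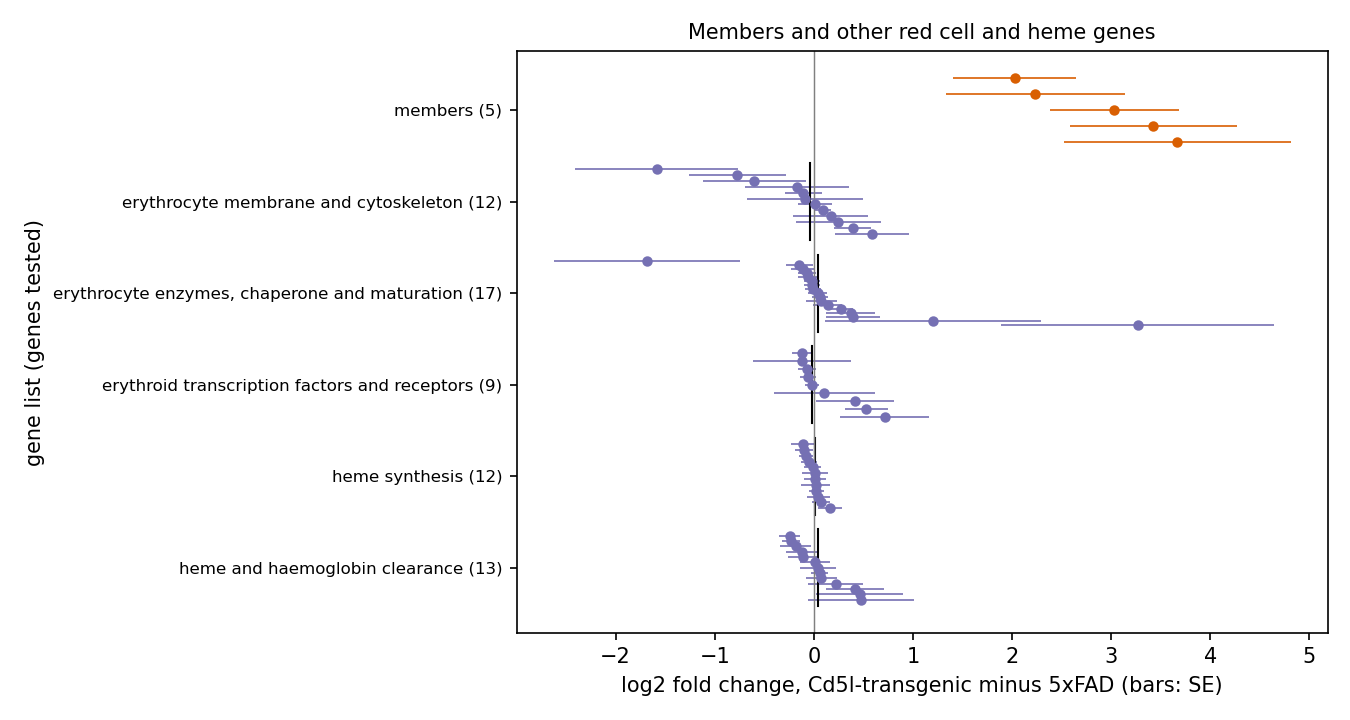
Log2 fold change (Cd5l-transgenic minus 5xFAD) with its standard error for the 5 members (orange) and for the tested genes of lists of red cell and heme genes (purple, with the list median as a black line). The members, chosen for this difference, ran from 2.03 to 3.67, while the list medians lay between -0.038 and 0.041. The lists summed to far higher CPM than the globins, so these medians could hide a red cell part.

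The other genes of the globin family were absent or low, apart from androglobin. The embryonic genes Hba-x and Hbb-bh1, and Hbq1b, Hbb-bh0, Hbb-bh2 and Hbb-bh3, had 0 counts in all libraries, and embryonic Hbb-y had at most 1. The table held 12 family genes, of which 3 passed the filter, with 0 called at adjusted p under 0.05 and 1 lower at an unadjusted p under 0.05. That was Adgb, androglobin, a gene of ciliated and sperm cells, at 6.95 and 11.9 CPM in the 5xFAD libraries against 6.72, 4.64 and 4.36 CPM in the Cd5l-transgenic ones (log2 difference -0.86, SE 0.31). Ngb, neuroglobin, stood at 0.75 (SE 0.60) on that scale and Cygb, cytoglobin, of 0.50 (SE 0.52), both with overlapping groups.

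Genes next to the members on the chromosomes had smaller differences than the members, which were chosen for being higher. Nprl3, whose introns hold enhancers of the alpha globin genes, stood at 27.7 and 26.8 CPM in the 5xFAD libraries against 26.1, 23.0 and 23.0 CPM in the Cd5l-transgenic ones (log2 difference -0.18, SE 0.10). Mpg and Rhbdf1, the other nearest tested genes on that side of Hba-a1, had log2 fold changes of -0.11 (SE 0.19) and 0.18 (SE 0.10), and Sh3pxd2b, the nearest on the other side, -0.52 (SE 0.26). Beside Alas2, Apex2 and Pfkfb1 stood at -0.18 (SE 0.17) and -0.34 (SE 0.37). The nearest tested gene to Hbb-bs, the pseudogene Dnajc19-ps, had a log2 fold change of 0.28 (SE 0.57) at under 1 CPM. Further away, Olfr78 (0.59, SE 0.39), Olfr558 (0.73, SE 0.37) and Trim6 (0.45, SE 0.33) were higher in every transgenic library. Gm45527 (-0.26, SE 0.34) was lower in each of them, and Trim34a (9e-04, SE 0.09) overlapped.

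Markers of other cell types moved with the globins in part. The summed mural cell genes (12 of 12 measured, all above 0) stood at 335.4 and 359.5 CPM in the 5xFAD libraries against 448.3 to 638.6 CPM in the Cd5l-transgenic ones, and the endothelial genes (12 of 12, all above 0) at 1487 and 1519 CPM against 1523 to 2511 CPM. The oligodendrocyte genes (9 of 9, all above 0) stood at 361.2 and 381.9 CPM against 390.9 to 4524 CPM, and the neuronal genes (7 of 8 measured, 6 above 0) at 10.9 and 11.1 CPM against 12.7 to 24.9 CPM. For these 4 lists, as for all 5 members, the highest library was Cd5l-transgenic replicate 2. It was also the highest for the summed neutrophil, monocyte, astrocyte and red cell membrane genes. Replicate 1 lay above replicate 3 for the endothelial (1532 against 1523 CPM), oligodendrocyte (1136 against 390.9 CPM) and neuronal sums (15.45 against 12.74 CPM). The summed globins and the mural genes had replicate 3 above replicate 1. Among blood cells, the monocyte genes (9 of 9, 8 above 0) stood at 206.3 and 215.2 CPM against 271.1 to 360.2 CPM. The neutrophil genes (12 of 12, 11 above 0) summed to 1130 and 1142 CPM against 1042 to 1169 CPM, and the platelet genes (7 of 13 measured, 4 above 0) to 159.9 and 195.4 CPM against 170.9 to 187.5 CPM, both overlapping. Platelet-specific Gp6 had 0 counts. B cell genes (5 of 8 measured, 2 above 0) and T and NK cell genes (10 of 13 measured, 4 above 0) also overlapped, at 354.6 to 401.3 CPM and at 7.62 to 11.7 CPM over all libraries. Astrocyte genes (7 of 7, 5 above 0) stood at 301.8 and 319.7 CPM against 308.8 to 434 CPM, and genes of choroid plexus and ependyma (10 of 10, 0 above 0) at 452.6 and 2856 CPM against 270.4 to 548.7 CPM, highest in 5xFAD replicate 3. Single genes made up much of some sums, which were therefore also taken, after the values were seen, without the most abundant gene of each list. Csf3r held 88.5% of the neutrophil sum, and the other 11 genes stood at 68.3 and 89.5 CPM in 5xFAD against 228, 175 and 84.4 CPM in Cd5l-transgenic replicates 1, 2 and 3, still overlapping. Without Fn1 the monocyte genes overlapped, at 90.6 and 99.3 CPM against 142, 92.7 and 126 CPM. The oligodendrocyte genes without Mbp (208 and 243 against 723, 3139 and 240 CPM) and the neuronal genes without Camk2a (2.44 and 1.81 against 4.04, 8.78 and 2.30 CPM) overlapped as well. The endothelial genes without Bsg and the mural genes without Rgs5 did not overlap. Without Ighm the B cell genes did not overlap either, at 20.2 and 23.4 CPM against 25.3, 29.9 and 28.8 CPM. The edgeR test called 0 genes of these lists at adjusted p under 0.05. At an unadjusted p under 0.05 it found 6 of the 12 mural genes higher, against 1.14% of all genes, and DESeq2 called 4 of them higher at adjusted p under 0.05, the smooth muscle genes Myh11, Acta2, Mylk and Tagln. The lists were chosen with earlier results of these data known, so these counts are a description and no test of the lists. The part of these cell types in the level of the members was not tested.

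**Figure D5:**
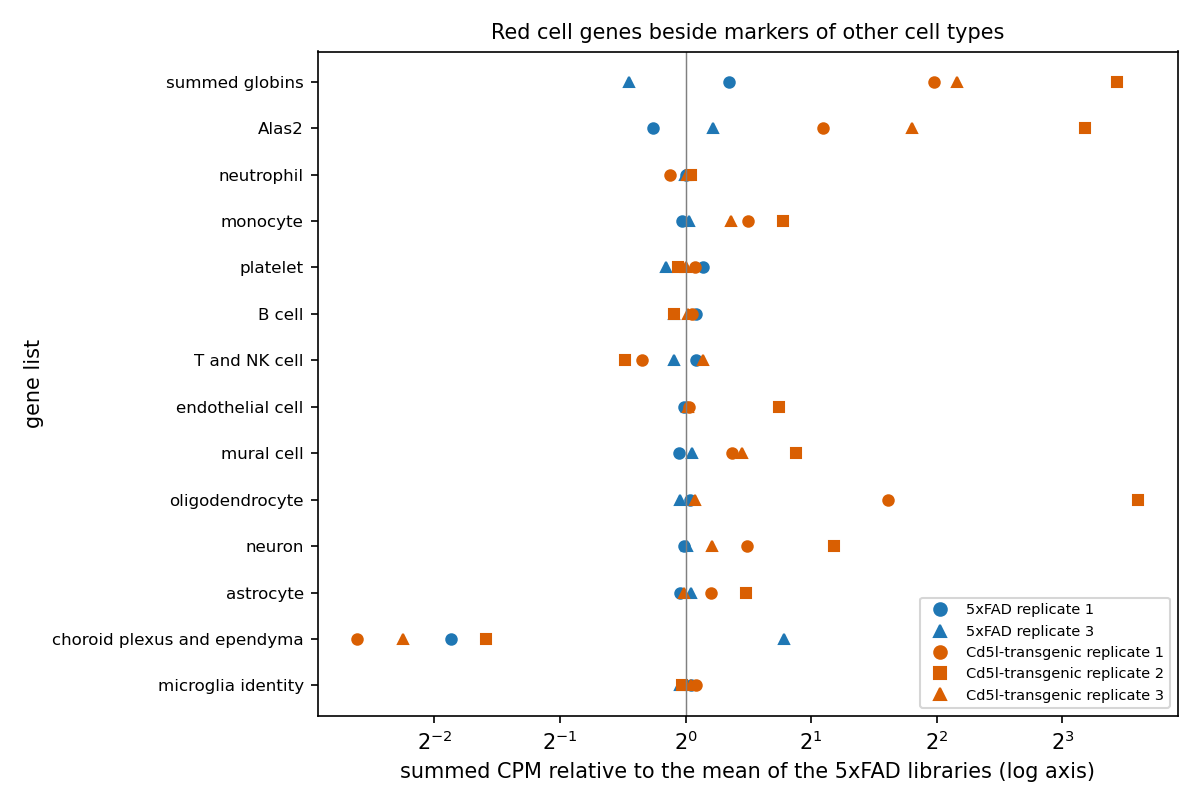
Summed CPM of the globins, of Alas2 and of marker lists in each library, relative to the mean of the 5xFAD libraries (log axis), with 5xFAD in blue and Cd5l-transgenic in orange. The transgenic libraries stood between 7.14 and 19.7 CPM for the summed globins and between 448.3 and 638.6 CPM for mural genes, while the microglial identity genes stayed between 24360 and 26560 CPM in all libraries.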

How the data were processed

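RNA-seq of 5 mice, 1 library each, was analysed from the authors' deposited table of raw counts, 1 row per Ensembl gene ID. The submitters' processing notes name mm39 (GRCm39); the sources used here do not give the aligner, counter, annotation release or strand setting. Groups and replicate numbers came from the titles. The column of Cd5l-transgenic replicate 3 has its letter pairs in another order and was matched by letters and number.

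Genes kept by filterByExpr (17724) were fitted with the edgeR 4.0.16 quasi-likelihood test (robust, TMM, genotype only, R 4.3.3), with Benjamini-Hochberg adjustment over all of them. Standard errors were derived from the fold change and F. Alternatives were DESeq2 1.42.0, other scalings and filters, a replicate block, summed copies and leaving out libraries.

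The members and gene lists were chosen with earlier results of these data known. Lists named up to 4 tested genes by smallest unadjusted p. Some genes of these lists are not reported here by name. The 10 most alike genes had a mean of at least 1 CPM. With 2 and 3 mice, precision is limited mainly by the spread between animals.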

Additional observations from a re-analysis of the deposited data

How the results depend on the processing

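Every alternative kept the log2 fold change of each member above 0: 15 settings for each globin gene and 12 for Alas2, which did not pass the filter without Cd5l-transgenic replicate 2 or 3 or, like the other members, with at least 5 CPM in 2 libraries. As the members were chosen for being higher in every transgenic library, this sign was largely set in advance and is no support. The number of genes called was 0, and 15 with DESeq2, 41 without 5xFAD replicate 3 and Cd5l-transgenic replicate 2 together (chosen after seeing the data), and 0 to 10 with 1 library left out. The log2 ratio of summed globins was 1.74 without that pair and 2.08 to 3.13 with 1 library left out. With 1 library left out, medians ran from -0.11 to 0.21 for membrane genes, -0.015 to 0.13 for red cell enzymes and -0.0055 to 0.10 for erythroid factors, and the log2 Alas2 to globin ratio from -1.17 to 0.099. Without a low-count filter the erythroid factor median was 0.21. A fit that leaves 1 mouse in 5xFAD assumes that it varies like the others. The replicate numbers are not said to pair mice. With them as a replicate block, in which Cd5l-transgenic replicate 2 carries no weight, 0 genes were called and Hba-a1, Hba-a2, Hbb-bs, Hbb-bt and Alas2 stood at 2.70, 2.69, 1.55, 2.74 and 1.47. The difference between replicates 1 and 3 correlated at -0.10 between the genotypes over genes. With 2 to 5 counts in 5xFAD, depth limits the ratios of Hba-a2, Hbb-bt and Alas2.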

Other observations

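Granule genes of neutrophils had another order among the transgenic mice than the globins. Camp, the cathelicidin, had 1.97 and 1.83 CPM in the 5xFAD libraries, compared with 6.63, 5.46 and 3.21 CPM in Cd5l-transgenic replicates 1, 2 and 3, and Ngp, neutrophilic granule protein, at 13.6 and 16.1 CPM against 40.8, 35.4 and 17.5 CPM. S100a9, an alarmin, stood at 16.5 and 21.4 CPM against 58.4, 43.5 and 20.6 CPM, and the iron-binding Ltf at 10.1 and 15.0 CPM against 32.0, 30.4 and 14.6 CPM. For these 4 genes Cd5l-transgenic replicate 1 was the highest library and replicate 3 the lowest of the transgenic ones, where S100a9 and Ltf lay within the 5xFAD range. Their log2 fold changes were 1.42 (SE 0.39) for Camp, 1.07 (SE 0.38) for Ngp, 1.10 (SE 0.46) for S100a9 and 1.02 (SE 0.40) for Ltf, and 0 of the 12 neutrophil genes passed the edgeR test at adjusted p under 0.05, with 3 higher at an unadjusted p under 0.05.

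Of the 1276 tested genes whose lowest transgenic library lay above the highest 5xFAD one, 53.4% had their highest value in Cd5l-transgenic replicate 2, 24.7% in replicate 1 and 21.9% in replicate 3. Over all tested genes these shares were 21.2%, 14.6% and 18.8%. For the 1276 genes a transgenic library is the highest by definition.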
